A study of Drosophila melanogaster with 4 samples.

Results

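SR proteins and hnRNP proteins are the main RNA-binding regulators of splice site choice. SR proteins carry RNA recognition motifs and a tail rich in arginine and serine, bind exons and recruit the spliceosome to nearby splice sites. The hnRNP proteins coat nascent transcripts and often act against them, and in Drosophila several members of both families control the splicing of their own or each other's transcripts. Smn, the fly survival motor neuron protein, assembles the small nuclear ribonucleoproteins on which all of this splicing depends. Here 9 regulators were described, chosen by FlyBase symbol: the SR and SR-like genes SF2, B52, SC35, x16 and tra2, and the hnRNP genes Hrb27C, Hrb87F, Hrb98DE and sqd. All splicing events whose introns lie inside these genes on the same strand were taken. This gave 109 events, of which 108 were listed in all 4 pairings of a mutant with a wild-type library, among 29166 such events in the whole series. By gene there were 4 events in SF2, 25 in B52, 6 in SC35, 5 in x16, 7 in tra2, 27 in Hrb27C, 5 in Hrb87F, 17 in Hrb98DE and 13 in sqd. Of the 109 events, 90 were retained introns, 3 alternative 5′ splice sites, 5 alternative 3′ splice sites, 9 skipped exons and 2 pairs of mutually exclusive exons.

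The libraries were made from polyA RNA of whole larvae, 2 from SmnX7/D mutants and 2 from the Oregon R wild-type strain. Both strains were grown at 24 ± 1 °C on molasses and agar and taken at 74 ± 2 hours after egg laying. Genotype and strain go together in these libraries, so an effect of Smn and a difference between strains cannot be told apart. The labels do not say whether the replicates were separate cultures or how many larvae each held, so p-values measure only the spread between these libraries. The study asked whether splicing differences in the mutants reflect their slower development, and for this the authors also deposited exon usage tables for published wild-type stages. Sampling whole larvae means that fewer cells of a type and less RNA per cell cannot be told apart. Of 28 marker genes for larval tissues, 24 had exon bins, with summed mean counts between 90.2 for the neuronal brp and 182723 for the fat body protein Lsp1beta, and none of the 24 was at 0. The level of Smn itself was not analysed here, so the genotype labels were not checked against it.

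Each event is described by the read pairs that fit only one of its isoforms. For a retained intron, the first isoform is the unspliced one and the second is joined across the intron, and the deposited fraction is the estimated share of the first isoform. Spliced read pairs summed over all retained-intron events came to 2355707 and 2306470 in the mutant libraries and 2315230 and 1733986 in the wild-type libraries. Dividing by these totals gives scaled spliced read pairs, which move with the gene's RNA level as well as with splicing. The root mean square log2 difference between replicates in these counts was 0.45 for the mutant libraries and 1.14 for the wild-type libraries. With 2 libraries a group, an exact permutation test of a single value cannot go below p = 0.33, so single values carry no permutation test and the tests are limma fits over all events of a type.

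Across the 9 genes, the isoform ratio passed the test in 3 of 18 retained introns tested, all toward the unspliced isoform in mutants: 1 in B52 and 2 overlapping ones in x16. Over all introns of the series, 12.1% passed in either direction and 11.0% toward the unspliced isoform, so the members' count lay near the background. The median log2 change in the ratio was 0.48 over these 18 introns and 0.55 over all 3302 tested. For spliced read pairs, 0 of 37 member introns passed and 0.181% of the whole series did (limma with Benjamini-Hochberg adjustment); before adjustment, 18 of the 37 and 2478 of all 9957 had p under 0.05. By direction, 24 of the 37 introns had more spliced pairs in mutants and 13 fewer, with a median log2 difference of 0.49. The median of all 9957 introns was itself 0.24, and 60.8% of them were higher in mutants. Scaled to library totals, the groups did not overlap in 19 introns higher in mutants and 11 lower, where all tested introns had 39.0% and 21.2%. The SR introns divided evenly, 10 higher and 10 lower with a median of 0.03; 1 of the higher ones, of 178 bases inside x16, is an intron of the nested gene nop5. Of the hnRNP introns 14 were higher and 3 lower, with a median of 0.70. They come from 4 genes, and 7 of the higher ones lie in Hrb98DE. Introns of a gene share its RNA level, so they are not separate observations. No test was made of the difference between the families. The counts turned on single libraries, in the members and in the whole series alike. With a mutant library left out, fewer retained-intron ratios passed in both. With a wild-type library left out, more ratios and more introns by spliced pairs passed in both. The ranges are given in the closing section. A fit with a library left out assumes that the lone library varies like those of the other group. In deposited fractions, the groups of libraries did not overlap in 30 of 89 retained introns that were higher in mutants and 7 that were lower, where the whole series had 26.9% and 12.2%. Several of these introns, as in Hrb27C and Hrb98DE, had almost no spliced pairs, so their fractions rest on unspliced pairs. Isoform-specific pairs of all retained introns came to 7788827 and 6947847 in mutants and 5204932 and 3988879 in wild type. The part of this depth difference was not tested. All 3 alternative 5′ splice sites and 4 of 9 skipped exons did not overlap, against 39.3% and 43.6% of all such events in either direction. The second isoform of the x16 5′ site had 0 pairs in every library, and that of the Hrb27C site at most 1. Neither of these separations measures a change in site use.

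**Figure D1:**
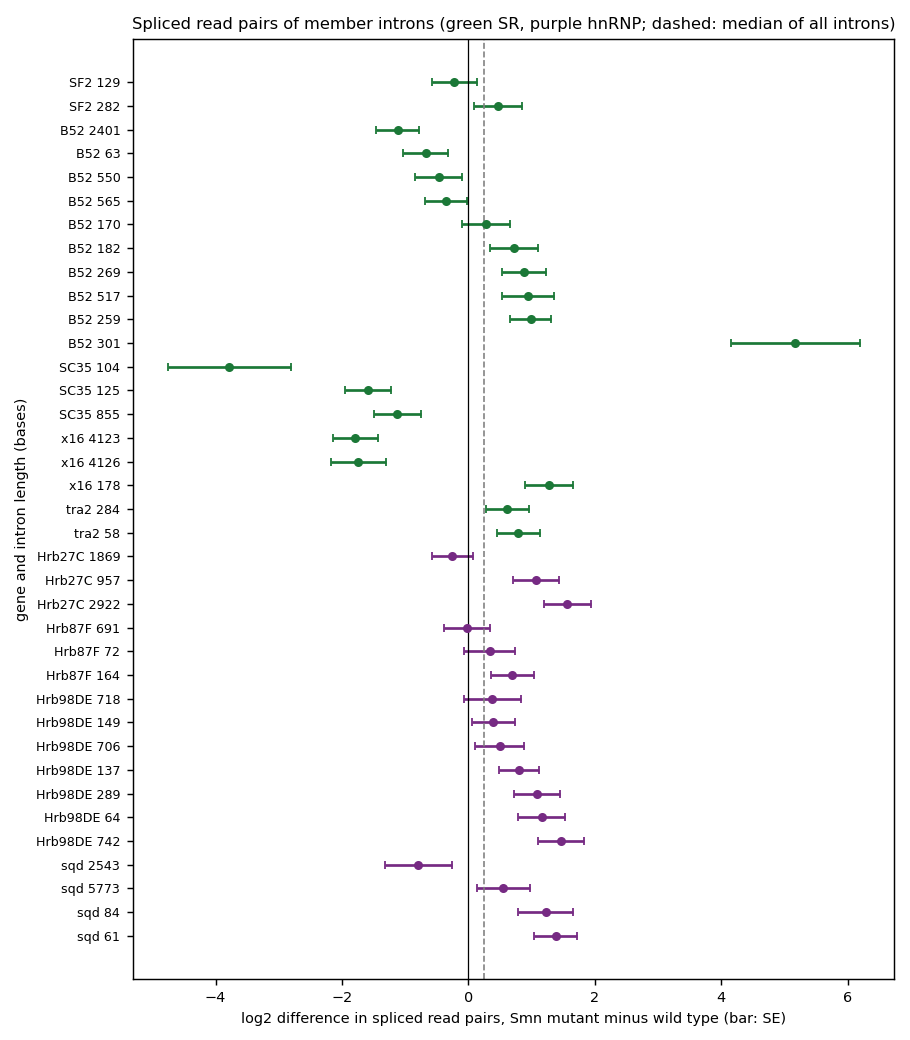
Log2 difference in spliced read pairs, Smn mutant minus wild type, for the 37 member introns tested (points, with SE as bars), by gene and intron length in bases. SC35 and the long x16 introns lie at the low end and the 301-base intron of B52 at the high end; the dashed line is the median of all introns, 0.24.

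B52 encodes an SR protein, also called SRp55, that is needed for larval development. In the middle of the gene, at chr3R:9488692-9491248 on the plus strand (dm3), an exon can end at a proximal donor and be spliced over a 2401-base intron. Alternatively it runs on 1883 bases to a distal donor and is spliced over a 518-base intron to the same acceptor. The 30-base windows below, read from the dm6 genome, show the competing sites, with the first or last 2 intron bases in capitals.
B52 donor of the 2401-base intron, chr3R:13663040-13663069 (dm6, plus strand): gttagctggcagGTaagtgagcatggatcg
B52 donor of the 518-base intron, chr3R:13664923-13664952 (dm6, plus strand): aaagcgcattaaGTaagaattcaattacaa
B52 acceptor of both, chr3R:13665429-13665458 (dm6, plus strand): ttccgactttgtgcgtccctgcAGgatctc
In the RefSeq annotation of dm6 the reading frame of the extended exon ends 57 bases past the proximal donor, with the stop codon in capitals in the next line.
B52 coding end in the extended exon, chr3R:13663040-13663108 (dm6, plus strand): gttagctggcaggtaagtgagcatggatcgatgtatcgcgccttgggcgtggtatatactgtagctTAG

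The extended exon had a fraction of 0.24 and 0.24 in the mutant libraries, against 0.09 and 0.10 in the wild-type libraries. Counted as retention of the whole 2401-base intron, which adds the 518-base intron to the extended exon, the fractions were 0.20 and 0.21 in mutants and 0.08 and 0.09 in wild type. The groups did not overlap under either description. For the whole intron, read pairs specific to the unspliced form numbered 499 and 529 in mutants and 410 and 291 in wild type, and those spliced over 2401 bases numbered 17 and 18 in mutants and 41 and 27 in wild type. As a retained intron the ratio rose by 1.49 ± 0.33 on the log2 scale (SE; limma adjusted p = 0.040). As an alternative 5′ splice site, where 6.47% of all such events passed, the log2 change was 1.58 and the adjusted p, 0.050035, missed the threshold. Both descriptions rest on nearly the same read pairs and are a single observation. Annotated exons of B52 cover 100% of the bases counted as unspliced, so the fractions compare transcripts and do not measure retention alone. Leaving out either mutant library ended the retained-intron call, with adjusted p of 0.18 without replicate 1 and 0.16 without replicate 2. It also missed the threshold with no minimum mean (adjusted p = 0.054) and without counting weights (adjusted p = 0.059).

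The 518-base intron gives a readout from junctions alone, which shares the pairs spliced over 2401 bases with the counts above. It was spliced in 23 and 17 read pairs in mutants and in 13 and 6 in wild type. Among pairs spliced over either intron, the distal donor took 57.5% (exact 95% interval 40.9% to 73.0%) and 48.6% (31.4% to 66.0%) in the mutant libraries. In the wild-type libraries it took 24.1% (13.5% to 37.6%) and 18.2% (6.98% to 35.5%). The libraries of the groups did not overlap. Such intervals here and below cover counting error only. An annotated 403-base intron joins the proximal donor to a site inside the extended exon. It was spliced in 4 and 12 pairs in mutants and in 7 and 7 in wild type. Transcripts spliced there can also use the distal donor, so the share does not measure the choice between the donors alone.

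B52 also had the highest single value of the 37 introns, at the start of the gene. Before the coding sequence, introns of 259, 269 and 301 bases share an acceptor and differ in their donor. The 301-base form is not in the dm6 annotation. Their donor windows, with the first 2 intron bases in capitals, are shown because the donor of the 301-base intron was seen almost only in mutants. Whether these strains differ in sequence there was not tested.
B52 donor of the 301-base intron, chr3R:13661389-13661418 (dm6, plus strand): agcgacttaattGTaaatttgccacaaata
B52 donor of the 269-base intron, chr3R:13661421-13661450 (dm6, plus strand): cttcactgaacgGTacgtgctagtgagtac
B52 donor of the 259-base intron, chr3R:13661431-13661460 (dm6, plus strand): cggtacgtgctaGTgagtacgcttaagtga
The 301-base intron was spliced in 54 and 32 read pairs in mutants and in 2 and 0 in wild type. Per spliced read pair of the library, the ratio of mutant to wild type over the groups was 37.3, with a counting interval of 10.03 to 313. Its share of the 3 introns was 15.4% and 10.4% in mutants and 1.30% in wild type replicate 1. In wild type replicate 2 it was found in 0 of 111 pairs, which allows a share of up to 2.70%. The limma log2 difference, 5.17 ± 1.02 (SE), depends on the pseudocount and had an adjusted p of 0.105, so it did not pass. The 269-base intron, the most used of the 3, had 196 and 182 pairs in mutants and 102 and 76 in wild type, and the 259-base intron had 101 and 93 in mutants and 50 and 35 in wild type. Their log2 differences were 0.88 and 0.99, and neither passed. A further form of 320 bases, also absent from the annotation, had 15 and 8 pairs in mutants and 2 and 0 in wild type. Further 3′ in the gene, a 46-base intron had no pair joined across it in any library and unspliced fractions of 0.08 and 0.16 in mutants and 0.30 and 0.25 in wild type, with deposited intervals too wide to separate them.

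**Figure D2:**
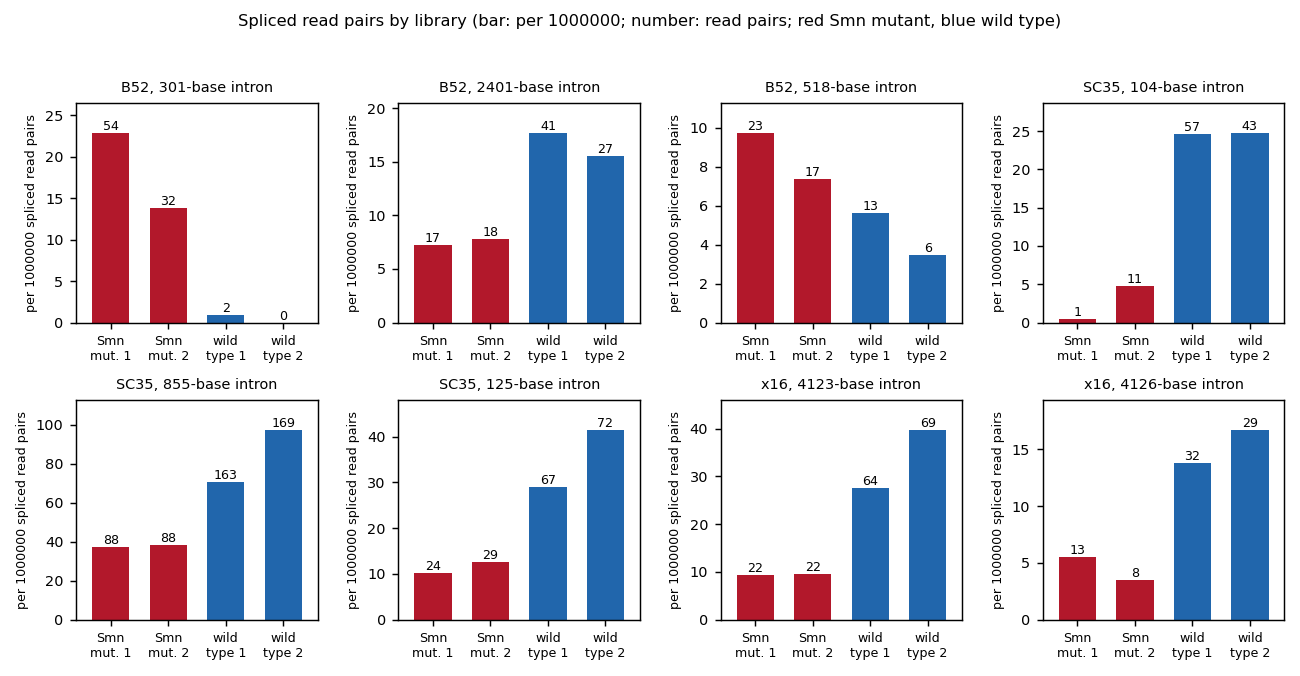
Spliced read pairs per 1000000 spliced pairs of the library (bars), by library, in B52, SC35 and x16, with the number of read pairs above each bar; Smn mutant libraries are red and wild-type libraries blue. The 301-base intron of B52 had 54 and 32 pairs in mutants and 2 and 0 in wild type, while the SC35 and x16 introns had fewer pairs in both mutant libraries than in both wild-type libraries.

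SC35, the fly form of the human splicing factor SRSF2, had fewer spliced read pairs in mutants at every intron tested. Its 104-base intron, which lies after the coding sequence, was spliced in 1 and 11 pairs in mutants and in 57 and 43 in wild type. The 125-base intron had 24 and 29 pairs in mutants and 67 and 72 in wild type, and the 855-base intron had 88 and 88 in mutants and 163 and 169 in wild type. Mutant and wild-type libraries did not overlap at any of the 3 introns. Log2 differences were -3.79 ± 0.97, -1.60 ± 0.36 and -1.13 ± 0.37 (SE), with limma adjusted p of 0.121, 0.112 and 0.151, so none passed. The splice sites of the first of these introns and the donor of the second are shown, with the terminal intron bases in capitals; the 125-base intron begins with GC in place of GT.
SC35 donor of the 104-base intron, chr2L:12432291-12432320 (dm6, minus strand): tgggagtgcgagGTgagttcatatcgtgta
SC35 acceptor of the 104-base intron, chr2L:12432199-12432228 (dm6, minus strand): aaactagttgttctttgctttcAGatatga
SC35 donor of the 125-base intron, chr2L:12433817-12433846 (dm6, minus strand): gtctcgcttaagGCaagtatctgctaagta
Unspliced pairs over the 855-base intron numbered 16 and 11 in mutants and 2 and 2 in wild type, and its unspliced fraction was 0.02 and 0.02 in mutants and listed as 0.00 in both wild-type libraries. This intron holds the small nucleolar RNA genes snoRNA:SC35-a and snoRNA:SC35-b, and their part in these reads was not tested. An 849-base intron that starts from another first exon had unspliced fractions of 0.79 and 0.87 in mutants and 0.59 and 0.53 in wild type, without overlap. Its spliced form was counted in 0 and 0 pairs in mutants and 3 and 3 in wild type, too few for a test. Exons of other SC35 transcripts make up 24% of the bases counted as unspliced there, so the fractions do not measure retention alone. The gene eRF3 overlaps SC35 on the opposite strand, and since the sources used here do not state that strand was used in counting, its reads cannot be told apart from unspliced SC35 reads.

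x16 encodes an SR protein with a zinc knuckle, related to human SRSF7. Its long intron, in the coding sequence at chr2L:6915401-6919523 on the minus strand (dm3), is 4123 bases long, and a second acceptor 3 bases downstream makes it 4126. The tandem acceptors are shown with the last 2 intron bases in capitals.
x16 acceptor of the 4123-base intron, chr2L:6915395-6915424 (dm6, minus strand): cgatttatcccatttcatttccAGaagcaa
x16 acceptor of the 4126-base intron, chr2L:6915392-6915421 (dm6, minus strand): tttatcccatttcatttccagaAGcaactc
Read pairs spliced over 4123 bases numbered 22 and 22 in mutants and 64 and 69 in wild type, and over 4126 bases 13 and 8 in mutants and 32 and 29 in wild type. Both forms were lower in both mutant libraries, with log2 differences of -1.79 ± 0.35 and -1.74 ± 0.43 (SE) and limma adjusted p of 0.105 and 0.117. The choice between the acceptors showed no such separation. The downstream acceptor took 37.1% and 26.7% of the pairs in mutants and 33.3% and 29.6% in wild type, and the values of the groups overlapped.

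The ratio of unspliced to spliced pairs at these x16 introns passed both the limma test and the authors' Bayes factors. The fraction of the unspliced isoform at the 4123-base intron was 0.91 and 0.93 in mutants and 0.63 and 0.32 in wild type. At the 4126-base intron it was 0.94 and 0.97 in mutants and 0.71 and 0.36 in wild type. The ratio rose by 2.80 and 2.63 on the log2 scale, with limma adjusted p of 0.029 and 0.038. These were also the only member events past the Bayes factor rule, which asks for a factor of at least 10 and a difference of at least 0.2 in all 4 pairings; 0.77% of all retained introns passed it. However, the bases counted as unspliced include exons of nop5, CG32829 and a small nucleolar RNA, which lie inside the intron; exons of other genes cover 67.4% of it. Pairs counted as unspliced at the 4123-base intron numbered 1608 and 1794 in mutants and 1061 and 500 in wild type. The intron of nop5, of 178 bases, was spliced in 160 and 184 pairs in mutants and in 84 and 44 in wild type, a log2 difference of 1.27. The ratio thus sets reads that include those of nested genes over spliced reads of x16, and neither call can be read as retention of the x16 intron. Without either mutant library the calls were lost, with adjusted p between 0.093 and 0.128. They were also lost with no minimum mean, at 0.118 and 0.111, and when the logit of the posterior mean was tested, at adjusted p of 0.137 and 0.151. A further x16 donor, giving an intron of 4297 bases, had no spliced pair in any library. As an alternative 5′ splice site it left the fraction of the 4123-base form at 0.78 and 0.89 in mutants and 0.94 and 0.98 in wild type.

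SF2, the fly form of human SRSF1, had no event past a test. Its 282-base intron was spliced in 319 and 266 pairs in mutants and in 188 and 174 in wild type. The 129-base intron had 167 and 159 pairs in mutants and 190 and 141 in wild type, and log2 differences at the 2 introns were 0.47 and -0.22. Scaled to library totals, the mutant libraries had the higher values at the first of these and the lower values at the second, without overlap. A 71-base intron near the end of the gene, not in the annotation, was unspliced in 0.98 and 0.96 of mutant transcripts and in 0.95 and 0.93 of wild-type transcripts.

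For tra2, the partner of Transformer in the sex-specific splicing of doublesex, no event passed a test. Its 232-base intron, annotated as exon in other transcripts, had unspliced fractions of 0.60 and 0.58 in mutants and 0.28 and 0.51 in wild type. The groups did not overlap, but the wild-type libraries lay further apart than wild type replicate 2 lay from the mutants, and the log2 change in the ratio, 0.95, had an adjusted p of 0.29. Spliced pairs at the 284-base and 58-base introns were 44 and 53 and then 40 and 37 in mutants, and 29 and 25 and then 20 and 18 in wild type, with log2 differences of 0.62 and 0.79 that did not pass.

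**Figure D3:**
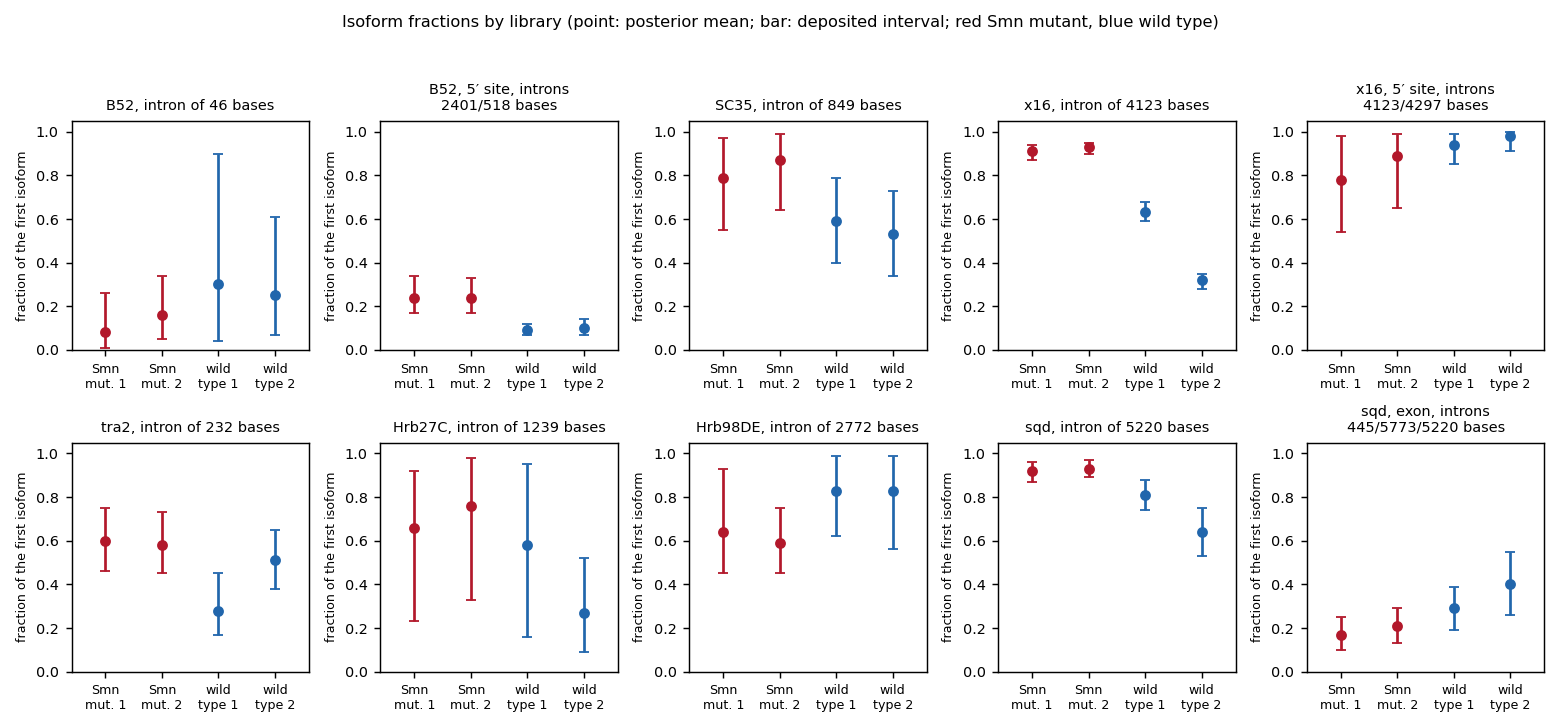
Deposited fraction of the first isoform by library (points, with the deposited interval as bars). For each gene and type, the non-overlapping event with the largest difference of group means is shown, where that is at least 0.1. Smn mutant libraries are red and wild-type libraries blue. For retained introns the first isoform is unspliced, for exons it includes the exon; the B52 extended exon lay at 0.24 and 0.24 in mutants and at 0.09 and 0.10 in wild type.

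Squid, the product of the hnRNP gene sqd, is an hnRNP that localises gurken mRNA in the oocyte, and its isoforms differ at the C-terminus through the splicing described here. A 108-base exon in the coding sequence lies between introns of 5220 and 445 bases and is skipped when the 5773-base intron is spliced. It is rich in glycine codons and is shown with the exon in capitals and 10 intron bases on each side in lower case.
sqd cassette exon, chr3R:13636961-13637088 (dm6, minus strand): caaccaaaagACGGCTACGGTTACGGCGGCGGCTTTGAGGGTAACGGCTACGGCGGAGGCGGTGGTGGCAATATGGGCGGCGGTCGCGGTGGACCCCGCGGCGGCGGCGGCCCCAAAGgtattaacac
The exon was included at fractions of 0.17 and 0.21 in mutants and 0.29 and 0.40 in wild type. Inclusion-specific pairs numbered 19 and 24 in mutants and 34 and 25 in wild type, and skipping-specific pairs 22 and 34 in mutants and 19 and 11 in wild type. The groups did not overlap, and the log2 change of -1.32 had a limma adjusted p of 0.26. None of 210 skipped exons in the whole series passed, 38 had an unadjusted p under 0.05, and this exon was among them. Junctions alone gave the same order, but these pairs overlap with the inclusion and skipping pairs above, so they are not separate evidence. The 5220-base intron took 18.8% and 16.1% of the pairs spliced from its donor in mutants and 30.4% and 46.7% in wild type.

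Of the 4 sqd introns tested for spliced pairs, 3 had positive log2 differences, and the 2543-base intron had -0.79 (adjusted p = 0.386). The 84-base intron had 302 and 345 spliced pairs in mutants and 183 and 77 in wild type, and the 61-base intron had 109 and 100 in mutants and 45 and 26 in wild type. Log2 differences were 1.22 and 1.38, with adjusted p of 0.168 and 0.117. The 5220-base intron counted as retained had fractions of 0.92 and 0.93 in mutants and 0.81 and 0.64 in wild type, with 9 and 9 spliced pairs in mutants and 17 and 14 in wild type. Its log2 change of 2.102 had an adjusted p of 0.067. At the 5773-base intron the fractions were 0.82 and 0.80 in mutants and 0.74 and 0.70 in wild type. Of the bases counted as unspliced in these 2 introns, 87.8% and 81.2% are exons of other sqd transcripts, so the fractions compare transcripts and do not measure retention.

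Hrb27C encodes Hrp48, an hnRNP that binds oskar and gurken mRNAs. Its 2922-base intron, spliced when an internal exon is skipped, was joined in 186 and 218 pairs in mutants and in 77 and 44 in wild type. The adjacent 957-base intron, used when the exon is included, had 627 and 560 pairs in mutants and 291 and 204 in wild type. Both were more frequent in each mutant library, with log2 differences of 1.56 and 1.06 and adjusted p of 0.113 and 0.159. The exon between the 1869-base and 957-base introns had overlapping inclusion fractions, 0.80 and 0.74 in mutants and 0.75 and 0.79 in wild type, and a log2 change of -0.52 in its read-pair ratio (limma adjusted p = 0.36). The unspliced-to-spliced ratio of the 2922-base intron had a log2 difference of -0.99, with an adjusted p of 0.053 that missed the threshold. For the form of this exon with the most pairs of the rarer isoform, inclusion was 0.61 and 0.54 in mutants and 0.43 and 0.53 in wild type. There the posterior means did not overlap, by 0.01, while the read-pair ratio pointed to less inclusion, with a log2 change of -0.46 and an adjusted p of 0.41. Among retained introns, the difference of group means was largest at an intron of 1239 bases that is not annotated. Fractions there were 0.66 and 0.76 in mutants and 0.58 and 0.27 in wild type, on 2 spliced pairs in all.

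Hrb98DE and Hrb87F encode Hrp38 and Hrp36, close relatives of human hnRNP A1 and A2/B1. All 7 tested Hrb98DE introns had positive log2 differences in spliced pairs, from 0.38 to 1.46, and none passed. The highest belonged to a 742-base intron with 63 and 66 pairs in mutants and 28 and 14 in wild type. The 289-base intron, the most used of the gene, had 281 and 339 in mutants and 151 and 103 in wild type. At the 718-base intron the unspliced fraction was 0.09 and 0.08 in mutants and 0.08 and 0.07 in wild type, and the values overlapped. A 2772-base intron that is not annotated had fractions of 0.64 and 0.59 in mutants and 0.83 and 0.83 in wild type. No spliced pair was counted for it in any library. Annotated exons of Hrb98DE make up 23.5% of its bases, so the fractions do not measure retention alone. Also, 6 small nucleolar RNA genes lie in it, and their part was not tested. In Hrb87F the deposited fractions of the groups overlapped at every event. Its 164-base intron was spliced in 137 and 136 pairs in mutants and in 90 and 58 in wild type, without overlap but with a limma adjusted p of 0.27, and had unspliced fractions of 0.03 and 0.01 in mutants and 0.01 and 0.02 in wild type.

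The authors' deposited tables of exon usage, which test each exon bin against the rest of its gene, gave a second readout for 6 of the 9 genes. Bins of SF2, SC35 and sqd were not analysed here. Of 53 member bins tested in mutants over wild type, 6 had an adjusted p under 0.05, against 2.99% of all bins, with 3 higher and 3 lower in mutants. In the authors' deposited table Hrb27C had the lowest adjusted p, 0.000359 at bin 1 with a log2 fold of 0.29. Its bin 6 had 0.19 (adjusted p = 0.0177) and its bin 8 had -0.077 (adjusted p = 0.0161). B52 had log2 folds of 0.19 at bin 14 (adjusted p = 0.0220) and -0.23 at bin 3 (adjusted p = 0.0375) in the authors' deposited table. Hrb87F had -0.16 at bin 6 (adjusted p = 0.0123) in the same deposited table of the authors. The bins carry no coordinates, so none can be placed on the introns above. In genes with no bin past the threshold, the lowest adjusted p in the authors' deposited table was 0.0515 for tra2 bin 1 (log2 fold -0.35). For Hrb98DE bin 4 it was 0.221 (log2 fold -0.14). The 2 bins of x16 tied at an adjusted p of 0.759 in the authors' deposited table. Their log2 folds were 0.06 at bin 1 and -0.11 at bin 2.

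**Figure D4:**
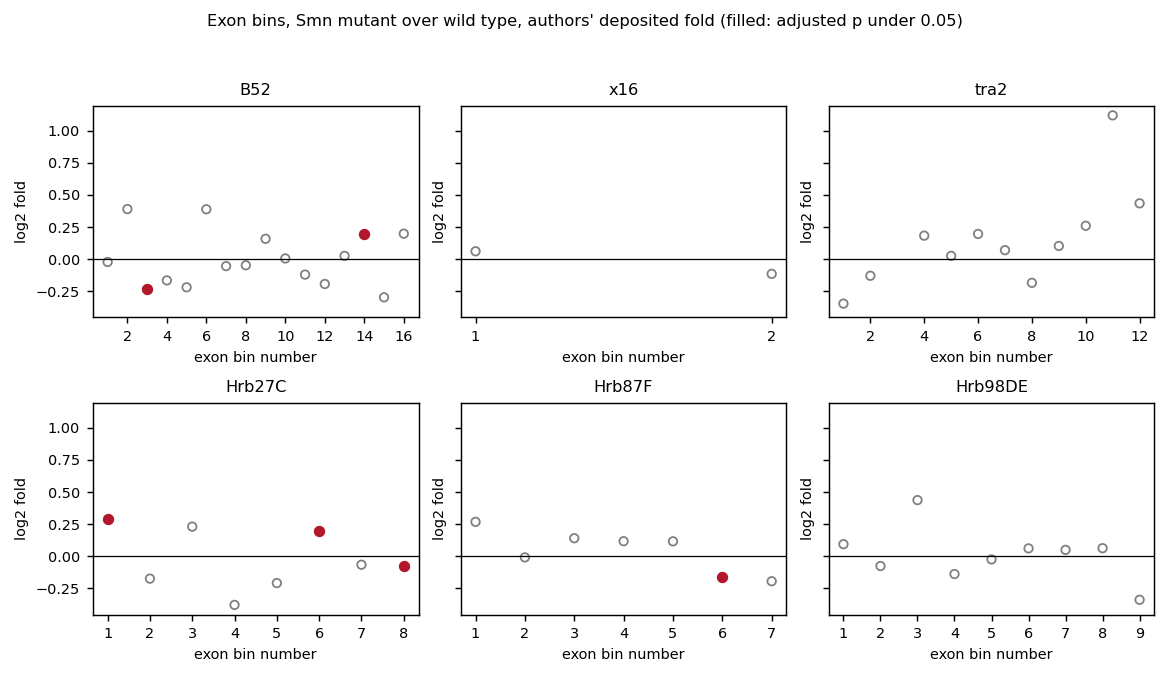
Log2 fold of exon usage, Smn mutant over wild type, by exon bin number in the authors' deposited table for the 6 member genes with bins; filled points have an adjusted p under 0.05. The 6 filled bins lie between -0.23 and 0.29.

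Published wild-type libraries of 3 larval stages gave the same readout for development; the tables share no library with the mutant comparison. Puff stage 1-2 of the third instar over the second instar had 1 of 47 member bins past the threshold in the authors' deposited table, where 1.03% of all bins passed. It was B52 bin 10, with a log2 fold of 0.35 and an adjusted p of 0.00344, and it is not one of the B52 bins called in mutants. For puff stage 1-2 over the third instar at 12 hours, 0 of 45 member bins passed in the authors' deposited table, against 0.638% of all bins. The lowest adjusted p in that deposited table was 0.292, again at B52 bin 10, with a log2 fold of 0.25. Both stage comparisons use the same puff stage libraries, so they are not separate. Whether mutant and stage differences differ from each other was not tested.

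The same readouts were taken for other genes of these roles. None passed among 2 tested isoform ratios in the SR protein kinases, 28 in other hnRNP genes and 14 in other splicing regulators (limma with Benjamini-Hochberg adjustment). The gene heph, the fly polypyrimidine tract-binding protein, had 2 retained introns past the Bayes factor rule, which 0.77% of all retained introns passed. Neither intron is annotated. The 1434-base intron had unspliced fractions of 0.45 and 0.49 in mutants and 0.10 and 0.12 in wild type. It was spliced in only 0 and 1 pairs in mutants and 1 and 1 in wild type. For mutants over wild type, exon bins of these lists passed in the authors' deposited table in 1 of 33 tests for SR-related genes, 4 of 122 for other hnRNP genes and 0 of 74 for other regulators, where 2.99% of all bins passed; the kinases had none tested. For puff stage 1-2 over the second instar, the hnRNP gene sm had 1 bin higher and 1 lower in the authors' deposited table. Of the sm bins 13 were tested, and 1.03% of all bins passed there. For puff stage 1-2 over the third instar at 12 hours, Syp, also an hnRNP gene, had 1 higher in the authors' deposited table. Of the Syp bins 18 were tested, and 0.638% of all bins passed there.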

How the data were processed

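Whole-larva polyA RNA was sequenced as read pairs after TruSeq version 2 preparation. Per the deposited readme and the submitters' processing notes, the authors aligned reads with TopHat2 2.0.8 and Bowtie2 2.1.0 to dm3, estimated isoforms with MISO 0.4.8 and tested exon bins with DEXSeq 1.0.2. The deposited MISO tables give a fraction (posterior mean, rounded), read pairs by isoform class, a score (the difference in fraction) and a Bayes factor, which is a ratio, for each pairing of a mutant with a wild-type library. The authors' deposited exon tables give a p-value, an adjusted p-value, a mean signal and a log2 fold per bin; how the published stage libraries were grouped was taken from the file headers. The members, gene lists and tests were chosen with earlier results of these data known.

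Events were placed on genes through the Ensembl and RefSeq annotations of dm6 by their own intron lengths and relative positions; coordinates of events are dm3 as deposited and those of sequences are dm6. Isoform ratios were tested with limma 3.58.1 in R 4.3.3 on log2 of the ratio of isoform-specific pairs (pseudocount 0.5, counting weights), over events whose libraries each held 20 or more such pairs, with a mean of at least 10 of each isoform. Spliced pairs were scaled to each library's total and tested with limma on log2(scaled pairs + 0.5), over introns with at least 20 in at least 2 libraries. Adjustment was Benjamini-Hochberg within an event type, at 0.05, and the fits were tested on simulated data. Every member gene is described. Values in every library are given for events past a test or the Bayes rule, for the non-overlapping event of each gene and type with the largest difference of at least 0.1, and for the event with the most pairs of the rarer isoform; other introns named were chosen after their values were seen. Replicate numbers did not pair the libraries (see the closing section). Low counts limit the precision of every single intron. Cufflinks outputs were not used here. Some results for the other SR-related genes are not reported here.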

Additional observations from a re-analysis of the deposited data

How the results depend on the processing

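With 400 retained introns called in all, leaving out a library in turn gave 125 to 626, and no minimum mean gave 45; the 3 member calls became 0 to 5 over the left-out libraries, 0 with no minimum mean, 5 with a minimum mean of 5, and 1 when whole events had to lie inside the gene, an alternative chosen after seeing the data. The 28 alternative 5′ splice sites became 0 with no minimum mean, 46 with a minimum mean of 20, 0 without weights and 0 to 9 over the left-out libraries. The 0 member calls of that type became 1 with a minimum mean of 5 or 20, a pseudocount of 1 or the logit of the posterior mean. The 0 alternative 3′ splice sites became 5 with a minimum mean of 5 and 2 with the logit. The 1 call in mutually exclusive exons became 0 with no minimum mean, without weights and with the logit, 4 with a minimum mean of 5, and 0 to 5 over the left-out libraries. The 18 calls in spliced pairs became 42 with median ratio scaling, which put the median of all introns at -0.01, 0 with no filter, 2 with at least 100 pairs, and 1 to 5360 over the left-out libraries; member calls ran from 0 to 22 over them. Bayes factor calls went to 353 in all and 4 in the members at a difference of at least 0.1, and exon bins in mutants to 985 in all and 1 in the members at an adjusted p under 0.01.

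Same-numbered libraries deviated together with correlations of 0.04 for the ratios and -0.02 for spliced pairs, so the numbers do not pair them. With the replicate block, 0 alternative 5′ splice sites, 7 skipped exons, 6 mutually exclusive exons and 262 introns by spliced pairs were called, with 1 member by ratio and 1 by spliced pairs; under the block the B52 2401-base ratio had an adjusted p of 0.068 and the x16 4126-base ratio 0.056.

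Single introns changed sign in a few settings. Over the left-out libraries, the Hrb98DE 718-base ratio ran from -0.025 (without mutant replicate 1) to 0.63, its spliced difference from -0.092 (without mutant replicate 2) to 0.85, and the 742-base ratio from -0.18 (without wild type replicate 2; -0.14 without mutant replicate 1) to 0.46. The Hrb27C exon with the 1776-base intron had 0.55 with the logit. The cause was not tested. Depth limits introns with few spliced pairs.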
